A study of Mus musculus musculus x M. m. domesticus and Mus musculus musculus x Mus musculus castaneus and Mus musculus domesticus with 42 samples.

Results

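Imprinted genes outside the Prader-Willi region were followed in brain, liver and testis of mouse subspecies and their reciprocal F1 hybrids. From a list of 41 imprinted genes, every array probe set whose platform annotation gave a listed gene as its single symbol was taken, which gave 87 probe sets of 37 genes among 45037 probe sets in all. Dio3, H19, Zrsr1 and Slc22a3 had no such probe set and were not analysed here.

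An imprinted gene is transcribed mainly from the copy inherited from the father or mainly from the copy inherited from the mother, through DNA methylation marks set in the parental germ lines and kept in the offspring. Many imprinted genes lie in clusters under a shared control region, in which paternally and maternally expressed neighbours alternate and a long non-coding RNA is often expressed from one parental copy. In the mouse, paternally expressed genes such as Igf2 tend to favour growth, maternally expressed genes such as Igf2r, Cdkn1c and Grb10 tend to restrain it, and many imprinted genes are strongly expressed in brain, where the parental bias can differ between cell types and transcript isoforms. In a pair of reciprocal F1 the autosomal genotype is the same and the parental origin of the alleles is exchanged. Reciprocal F1 males also differ in the origin of the X and Y chromosomes and the mitochondria, and in the mother. Here these cannot be told apart from the parental origin of autosomal alleles.

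The data were 42 single-colour arrays from 14 males, 2 of each of 7 genotypes, each male giving brain, liver and testis. The parents were inbred mice descended from wild-caught M. m. musculus (47 days old), M. m. domesticus (45 days) and M. m. castaneus (47 days). With the mother written first, the F1 were musculus x domesticus (53 days), domesticus x musculus (50 days), musculus x castaneus (53 days) and castaneus x musculus (54 days). All males of a genotype had the same age, so that age and genotype cannot be told apart where ages differ, which they did not between musculus and castaneus, and each subspecies was represented by inbred mice only. Signals were on a linear scale with the authors' scaling, and the trimmed mean was close to 500 units on all arrays. Tissue labels were borne out by marker genes: the summed signal of Snap25, Syt1, Gfap and Mbp was at least 40903 in brain and at most 2646 in liver and 508 in testis, and that of the germ cell genes Prm1, Prm2, Tnp1 and Acrv1 was at least 49101 in testis and at most 382 elsewhere. The sum of Alb, Apoa1 and Ttr was at least 67947 in liver and at most 17318 in brain and 2014 in testis. In testis, the musculus x castaneus F1 stood apart from the other genotypes, and the counts of F1 against parent and of the paternal index are given with and without it. One other testis array, castaneus x musculus replicate 1, had a median signal of 95, against 118 to 158 on the other 13. The same male also had the lowest median in liver (97, against 115 to 144) and in brain (130, against 133 to 183).

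Differences are given as log2 differences of signal plus an offset of 31 units, with the standard error (SE) of the fit. A probe set was called at a Benjamini-Hochberg adjusted p under 0.05 in limma, fitted in each tissue over the 27022 probe sets with the highest mean level. This filter kept 56 of the 87 probe sets (31 genes) in brain, 52 (28 genes) in liver and 47 (27 genes) in testis. All 3 tissues kept 37 probe sets of 22 genes. The 19 probe sets below the filter in every tissue included all those of Ascl2, Peg10 and Zim1, genes best known from placenta and embryo. By the copy usually expressed, 34 probe sets belonged to 14 paternally expressed genes, 39 to 18 maternally expressed genes and 14 to Grb10, Gnas, Ddc, Inpp5f and Dlx5, whose bias depends on isoform or tissue or is disputed. These roles were taken as listed for each gene and were not measured in these tissues. Genes listed as paternally or maternally expressed, such as Igf2 and Dcn, can also be biased in some tissues only.

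Brain was the tissue in which these genes were most often highest. All 14 brain arrays lay above all 28 other arrays for 33 of the 87 probe sets (37.9%), from 16 genes, while 11.0% of all probe sets on the array had this pattern. The 16 genes were Blcap, Dlk1, Gnas, Igf2, Impact, Inpp5f, Kcnq1ot1, Meg3, Mest, Nap1l5, Nnat, Peg3, Plagl1, Ppp1r9a, Rasgrf1 and Usp29. Nap1l5, a paternally expressed nucleosome assembly protein gene, had signals between 8636 and 10902 in brain, at most 115 in liver and at most 91 in testis. Nnat (neuronatin, paternally expressed, a small membrane protein of neurons) ranged from 2682 to 4984 in brain, from 19 to 125 in liver and from 74 to 200 in testis. Rasgrf1, a paternally expressed exchange factor for Ras, ranged from 6863 to 8900 in brain with probe set 1435614_s_at, from 302 to 800 in liver and from 368 to 607 in testis. The brain ranges of all 3 genes lay far above those of the other tissues. Meg3, a maternally expressed long non-coding RNA, ranged from 10101 to 13826 in brain with 1439380_x_at, with a median of 11713.

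Liver was highest for 5 probe sets (5.75%, against 6.74% of all probe sets) from Ddc, Slc22a18 and Slc38a4. Slc38a4, a paternally expressed amino acid transporter, had signals of 8366 to 14662 in liver with probe set 1448889_at, at most 109 in brain and at most 30 in testis. Slc22a18, a maternally expressed transporter of the Kcnq1 cluster, ranged from 1727 to 4023 in liver with probe set 1417809_at and did not pass 53 in brain or 211 in testis. Testis was highest for 5 probe sets (5.75%, against 10.2%) from Asb4, Cdkn1c, Commd1 and Copg2. Cdkn1c, a maternally expressed inhibitor of cyclin-dependent kinases, ranged from 755 to 1601 in testis, from 213 to 451 in brain and from 53 to 242 in liver. Commd1 1424122_s_at ranged from 2173 to 3840 there, from 517 to 1307 in brain and from 920 to 1620 in liver. Patterns in which a tissue was lowest on all its arrays were few, at 2 probe sets for brain (2.16% of all probe sets had it), 4 for liver (4.24%) and 3 for testis (5.36%). They came from Commd1 and Kcnq1ot1 in brain, Igf2, Ppp1r9a and Rasgrf1 in liver, and Cd81, Ddc and Gnas in testis. Kcnq1ot1 was thus among both the highest and the lowest in brain, with different probe sets.

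**Figure D1:**
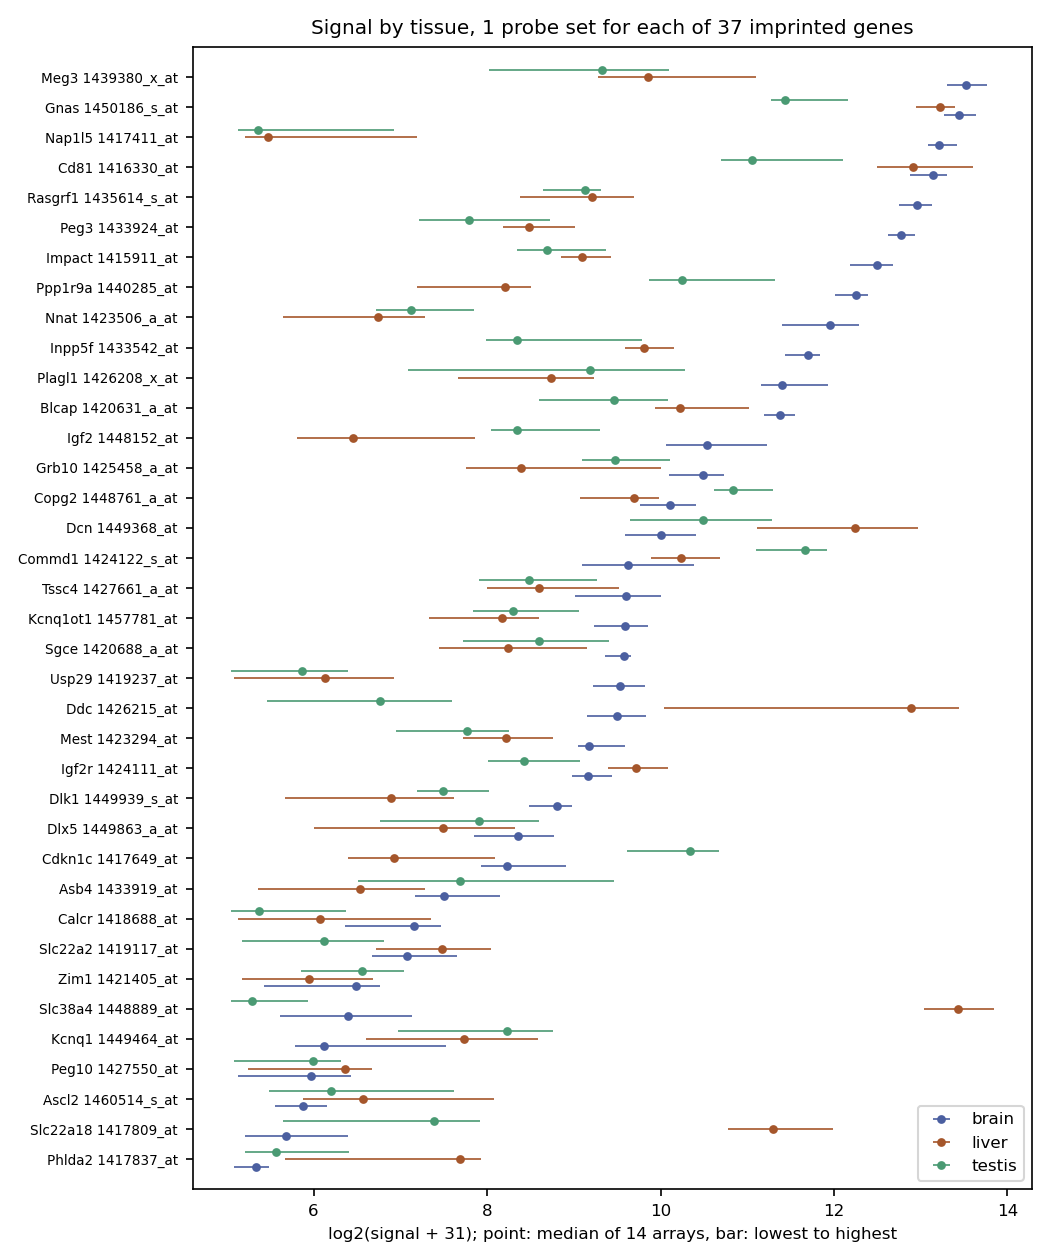
Signal of 37 imprinted genes in each tissue as log2(signal + 31), with the median of 14 arrays as a point and the lowest to highest array as a bar; each gene is shown with the probe set of its highest summed tissue medians, ordered by the brain median. Brain lies to the right of the other tissues for genes such as Nap1l5, Nnat and Rasgrf1, liver for Slc38a4 and Slc22a18, and testis for Cdkn1c.

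The parental subspecies differed in brain at few imprinted probe sets. Between domesticus and musculus 2 of 56 were called, while 5.75% of all tested probe sets were called. Between castaneus and musculus 1 of 56 was called, against 6.07%. These were Igf2 in both comparisons and Meg3 in the first. The median difference of the 56 was 0.077 for domesticus and 0.027 for castaneus, beside -0.052 and -0.049 over all tested probe sets.

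Igf2, the paternally expressed insulin-like growth factor, had brain signals with probe set 1448152_at of 1080 and 1149 in musculus, 2316 and 2363 in domesticus, and 2301 and 1951 in castaneus. Both other subspecies lay above musculus with no overlap, at about double its signal. The log2 difference was 1.05 (SE 0.15, adjusted p = 0.0017) for domesticus and 0.91 (SE 0.15, adjusted p = 0.00423) for castaneus, and both calls held when any 1 of the arrays compared was left out. In the hybrids Igf2 gave 1058 and 1042 in musculus x domesticus, 1619 and 1658 in domesticus x musculus, 1363 and 1169 in musculus x castaneus, and 1544 and 1151 in castaneus x musculus. The musculus x domesticus F1 lay at the level of musculus, its mother, and was below domesticus, its father (log2 difference -1.13, SE 0.15, adjusted p = 0.00638), a call that ended without domesticus replicate 2 or musculus x domesticus replicate 2 (adjusted p up to 0.0792). The domesticus x musculus F1 lay between its parents. As background, Igf2 in adult mouse brain is known mainly from choroid plexus and meninges, where it is transcribed from both parental copies. The summed signal of 8 choroid plexus genes in brain was 1843 and 1781 in musculus, 3161 and 3170 in domesticus, 2610 and 2571 in castaneus, 2298 and 1782 in musculus x domesticus, 2524 and 2757 in domesticus x musculus, 1858 and 2041 in musculus x castaneus, and 2179 and 2200 in castaneus x musculus. Of these 8 genes, Clic6, Kl, Sostdc1 and Steap1 were called higher in domesticus than in musculus and Sostdc1 in castaneus. Ttr was counted with the liver genes Alb and Apoa1 and not in this list. The summed brain signal of Alb, Apoa1 and Ttr was 14520 and 14411 in musculus, 15659 and 15988 in domesticus, and 12623 and 12021 in castaneus, with no call. Among 7 genes of meninges and fibroblasts, Aldh1a2 and Col1a2 were called higher in both. The part of these cell types in the Igf2 values was not tested, and in bulk tissue more cells of a type and more RNA per cell cannot be told apart.

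Meg3 had 11 probe sets, all tested in brain, and they did not behave alike. With 1452906_at the brain signals were 3460 and 4401 in musculus, 9497 and 6561 in domesticus, 3382 and 4448 in castaneus, 3799 and 4893 in musculus x domesticus, and 9187 and 6006 in domesticus x musculus. The domesticus mice and the F1 with a domesticus mother were high, and the musculus mice and the F1 with a musculus mother were low, with no overlap. The castaneus hybrids, at 4563 and 4556 for musculus x castaneus and 4093 and 3544 for castaneus x musculus, lay near both of their parents. Domesticus exceeded musculus by 1.01 (SE 0.24, adjusted p = 0.0272). The call ended without domesticus replicate 1, musculus replicate 1 or musculus replicate 2 (adjusted p up to 0.225). Across the 11 Meg3 probe sets the difference between domesticus and musculus ranged from 0.04 to 1.01.

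The reciprocal F1 comparison, in which autosomal alleles are shared and parental origin is exchanged, gave no call in brain in either cross. Of all tested probe sets, 0.0222% were called in the domesticus cross and 0.0111% in the castaneus cross. At an unadjusted p under 0.05 in limma, 11 of 56 imprinted probe sets (19.6%) passed in the domesticus cross, beside 4.12% of all tested probe sets, and 3 (5.36%) in the castaneus cross, beside 3.95%. Some of these probe sets share a gene, and none had an adjusted p under 0.6. Those in the domesticus cross were Igf2, Meg3 with 3 probe sets, Plagl1, Inpp5f 1447757_x_at, Calcr, Commd1 with both of its probe sets, Ppp1r9a 1440285_at and Impact.

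To place each F1 between its parents, a paternal index was computed as the mean position of both reciprocal F1 on the scale from mother (0) to father (1), with 0.5 for the midpoint. It was read only where the parental lines differed at an unadjusted p under 0.05, and it uses the same parental arrays as that difference. An index near 0.5 also arises where both F1 lie towards the same subspecies. In the brain of the domesticus cross this left 7 imprinted probe sets, of which 5 had an index under 0.25, towards the mother, and 0 had one above 0.75. Over all 4608 probe sets with such a parental difference, 8.14% lay under 0.25 and 6.29% above 0.75. The 5 were Meg3 1452906_at with an index of 0.114, Meg3 1436713_s_at with 0.081, Commd1 1424122_s_at with -0.011, Ddc with 0.117 and Igf2 with 0.201. Both F1 lay near the mother for Meg3 and Commd1, while the Igf2 index was the mean of -0.079 in musculus x domesticus and 0.482 in domesticus x musculus. Meg3 and Commd1 are both known as maternally expressed in brain, Igf2 as paternally expressed outside the choroid plexus and meninges, and Ddc (aromatic L-amino acid decarboxylase) as biased in some isoforms and tissues. Nnat lay near the midpoint, at 0.499, with 0.438 in musculus x domesticus and 0.561 in domesticus x musculus. The index of 0.583 for Ppp1r9a 1458942_at was the mean of 0.964 and 0.201 in the same F1, both towards domesticus.

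Commd1 encodes a copper metabolism domain protein, and its paternally expressed partner Zrsr1 lies in one of its introns. With 1424122_s_at the brain signals were 679 and 696 in musculus, 903 and 1307 in domesticus, 663 and 791 in musculus x domesticus, and 1036 and 1290 in domesticus x musculus. Both hybrids were near their mothers. The parental difference was 0.64 (SE 0.25, adjusted p = 0.192 in limma) and the reciprocal difference was -0.65 (SE 0.25, adjusted p = 1.0), so that neither was called. The second Commd1 probe set, 1424121_at, had a reciprocal difference of the same sign (-0.47, SE 0.17) with a parental difference of the opposite sign (-0.17, SE 0.17).

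In the castaneus cross 7 brain probe sets had a parental difference at p under 0.05, of which 3 had an index above 0.75 (4.99% of all) and 1 under 0.25 (10.9% of all). Nnat had the highest index, at 1.141. Its brain signals were 2919 and 3621 in musculus, 4454 and 4551 in castaneus, 4041 and 4535 in musculus x castaneus, and 2962 and 2682 in castaneus x musculus. The mice with a castaneus father were high and those with a musculus father were low in both the parents and the F1. The reciprocal difference was 0.60 (SE 0.14, adjusted p = 0.616). In the domesticus cross, Nnat had parental signals of 4278 and 4984 in domesticus, and both F1 lay between the parents, at 3725 and 3859 in musculus x domesticus and 3517 and 4091 in domesticus x musculus. The other imprinted probe sets above 0.75 in the castaneus cross were Grb10 1425458_a_at (0.895) and Ppp1r9a 1458942_at (0.829), and Ddc was the one under 0.25 (0.196). The rest, Igf2 (0.458), Meg3 1436713_s_at (0.434) and Ppp1r9a 1456072_at (0.447), had indices nearer 0.5, each a mean of unlike positions. In musculus x castaneus and castaneus x musculus these were 0.193 and 0.722 for Igf2, with both F1 towards musculus. They were 0.68 and 0.188 for Meg3 and 0.928 and -0.033 for Ppp1r9a, with both F1 towards castaneus. Meg3 1436713_s_at, with an index of 0.081 in the domesticus cross, thus lay near the mother here only in castaneus x musculus. Grb10 is a growth factor receptor adaptor that is paternally expressed in neurons and maternally expressed in most other tissues, and Ppp1r9a encodes neurabin, an actin-binding protein of synapses.

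**Figure D2:**
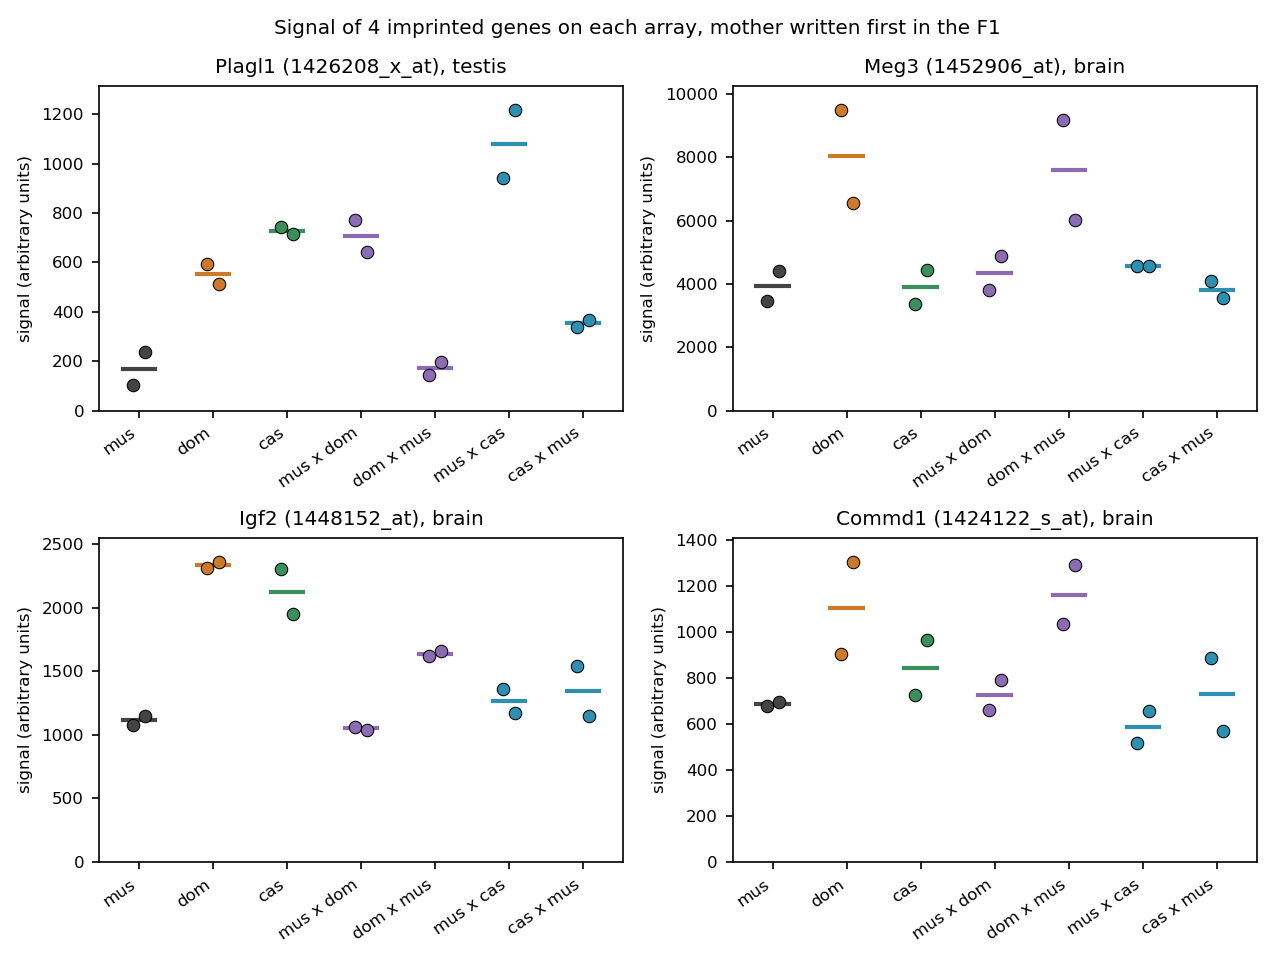
Linear signal of each array (points) and the mean of 2 males (bars) for Plagl1 in testis and for Meg3, Igf2 and Commd1 in brain, over 3 parental lines and 4 F1 with the mother written first. Plagl1 was high where the father was domesticus or castaneus, and Meg3 1452906_at and Commd1 1424122_s_at were high where the mother was domesticus; Igf2 in the musculus x domesticus F1 was at the musculus level.

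Liver also gave few differences. A single imprinted probe set of 52 was called between domesticus and musculus (6.17% of all) and a single one between castaneus and musculus (6.55%). Both were Dcn 1449368_at, decorin, an extracellular matrix proteoglycan that is maternally expressed in placenta. Its liver signals were 2732 and 2176 in musculus, 7583 and 5136 in domesticus, and 5877 and 7978 in castaneus. The musculus mice were the lowest of all genotypes. Domesticus exceeded musculus by 1.34 (SE 0.26, adjusted p = 0.00718) and castaneus exceeded it by 1.48 (SE 0.26, adjusted p = 0.00396). The first call ended without domesticus replicate 1 or musculus replicate 2 (adjusted p up to 0.0701), and the second held without any 1 array. The count of imprinted calls for domesticus became 3 without domesticus replicate 2, and that for castaneus became 2 without castaneus replicate 2. The F1 lay between the parents, at 4450 and 2789 in musculus x domesticus, 4122 and 3425 in domesticus x musculus, 4525 and 5641 in musculus x castaneus, and 5381 and 5387 in castaneus x musculus. The paternal index was 0.466 in the domesticus cross and 0.469 in the castaneus cross, close to 0.5 in both. In the castaneus cross it was the mean of 0.705 in musculus x castaneus and 0.234 in castaneus x musculus, both towards castaneus. The summed liver signal of 7 fibroblast genes, Dcn not among them, was 3075 and 2809 in musculus, 3904 and 3884 in domesticus, and 6025 and 5409 in castaneus. Of these, Lum was called higher in domesticus, and Aldh1a2, Col1a2 and Lum in castaneus. Their part in the Dcn difference was not tested.

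No imprinted probe set was called between reciprocal F1 in liver, where 0.0888% of all tested probe sets were called in the domesticus cross and 0.037% in the castaneus cross. At an unadjusted p under 0.05 in limma, 4 of 52 (7.69%) passed in the domesticus cross, beside 9.62% of all, and 2 (3.85%) in the castaneus cross, beside 3.51%. The 2 were Meg3 probe sets. Meg3 1439380_x_at gave 768 and 923 in musculus x castaneus and 1585 and 2173 in castaneus x musculus, with 1130 and 896 in musculus and 901 and 1316 in castaneus. The castaneus x musculus F1 was thus above both parents and the other F1. The reciprocal difference was -1.11 (SE 0.25, adjusted p = 0.395). Meg3 1452905_at gave 270 and 351 in musculus x castaneus and 714 and 1186 in castaneus x musculus, a difference of -1.49 (SE 0.45, adjusted p = 0.937). Ddc 1426215_at varied widely between males of one genotype, with 1020 and 6141 in domesticus, 1366 and 3878 in musculus x domesticus and 3964 and 9469 in musculus, and had the largest reciprocal difference in the domesticus cross at -1.81 (SE 0.67, adjusted p = 0.382). Igf2 and Nnat were below the filter in liver, where Igf2 is known to fall after birth.

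Testis had more called imprinted probe sets than the other tissues, on a background that was also higher. Between domesticus and musculus 6 of 47 were called (12.8% of all tested), 3 higher (6.95% of all) and 3 lower (5.86%). Between castaneus and musculus 10 of 47 were called (13.5% of all), 4 higher (7.48%) and 6 lower (6.0%). Leaving out 1 array at a time took the first count to between 1 and 3, with 2 called without domesticus replicate 1, 1 without domesticus replicate 2 and 3 without either musculus replicate. It took the second to between 4 and 9, with 6 without musculus replicate 1 and 4 without castaneus replicate 2. Without the musculus x castaneus arrays in the fit, the counts were 7 and 10. Among Leydig cell genes, Cyp17a1 was called higher in domesticus and in castaneus, Hsd3b1 lower in domesticus and Star lower in castaneus. The summed signal of the 4 Leydig genes was 5284 and 5916 in musculus, 8013 and 8968 in domesticus, and 12989 and 9132 in castaneus. That of the genes of Sertoli and peritubular cells was 15859 and 14944, 16254 and 15502, and 13674 and 16110 in the same order, with Sox9 called lower in domesticus. Their part in the parental differences was not tested.

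Plagl1, a paternally expressed zinc finger transcription factor that restrains cell growth and regulates other imprinted genes, was the imprinted gene with calls in both parental comparisons and both reciprocal comparisons of testis. With probe set 1426208_x_at, whose suffix marks probes that may also match other transcripts, the testis signals were 105 and 235 in musculus, 592 and 514 in domesticus, and 744 and 713 in castaneus. Musculus was low and the other subspecies were high. The musculus x domesticus F1, with a domesticus father, gave 771 and 644, and the domesticus x musculus F1, with a musculus father, gave 144 and 198. Each F1 lay at its father's level, and these groups did not overlap. In the castaneus cross the musculus x castaneus F1 gave 941 and 1217 and the castaneus x musculus F1 gave 340 and 368. The first lay above its castaneus father and the second between its parents. The parental differences were 1.62 for domesticus (SE 0.26, adjusted p = 0.000966) and 2.00 for castaneus (SE 0.26, adjusted p = 0.000177).

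The reciprocal difference of Plagl1 in testis was 1.88 in the domesticus cross (SE 0.26, adjusted p = 0.00902), the only call among the 47 imprinted probe sets in a comparison that called 0.204% of all tested probe sets. It was lost without musculus x domesticus replicate 1 (adjusted p = 0.175), musculus x domesticus replicate 2 (adjusted p = 0.055) or domesticus x musculus replicate 1 (adjusted p = 0.0782), while its size stayed between 1.68 and 2.07. In the castaneus cross the difference was 1.52 (SE 0.26, adjusted p = 0.00129) and the call held without any 1 array, in a comparison that called 28.4% of all tested probe sets. The paternal index of the domesticus cross was 1.081, with both F1 near the father (1.208 in musculus x domesticus and 0.954 in domesticus x musculus). That of the castaneus cross was 0.88, the mean of 1.269 in musculus x castaneus and 0.491 in castaneus x musculus, the latter near the midpoint. Against its mother, the domesticus x musculus F1 was lower (log2 difference -1.54, SE 0.26, adjusted p = 0.00865), a call lost without domesticus replicate 1 or domesticus x musculus replicate 1 (adjusted p up to 0.0999). The musculus x domesticus F1 was higher by 1.95 (SE 0.26, adjusted p = 0.000723), and this call held without any 1 array. Neither F1 of the domesticus cross was called against its father. The other Plagl1 probe sets were below the filter in testis, so that this pattern rests on a single probe set. In brain the same probe set had a smaller reciprocal difference of like sign in the domesticus cross (0.53, SE 0.16, adjusted p = 0.99), with 3880 and 2994 in musculus x domesticus and 2461 and 2262 in domesticus x musculus.

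**Figure D3:**
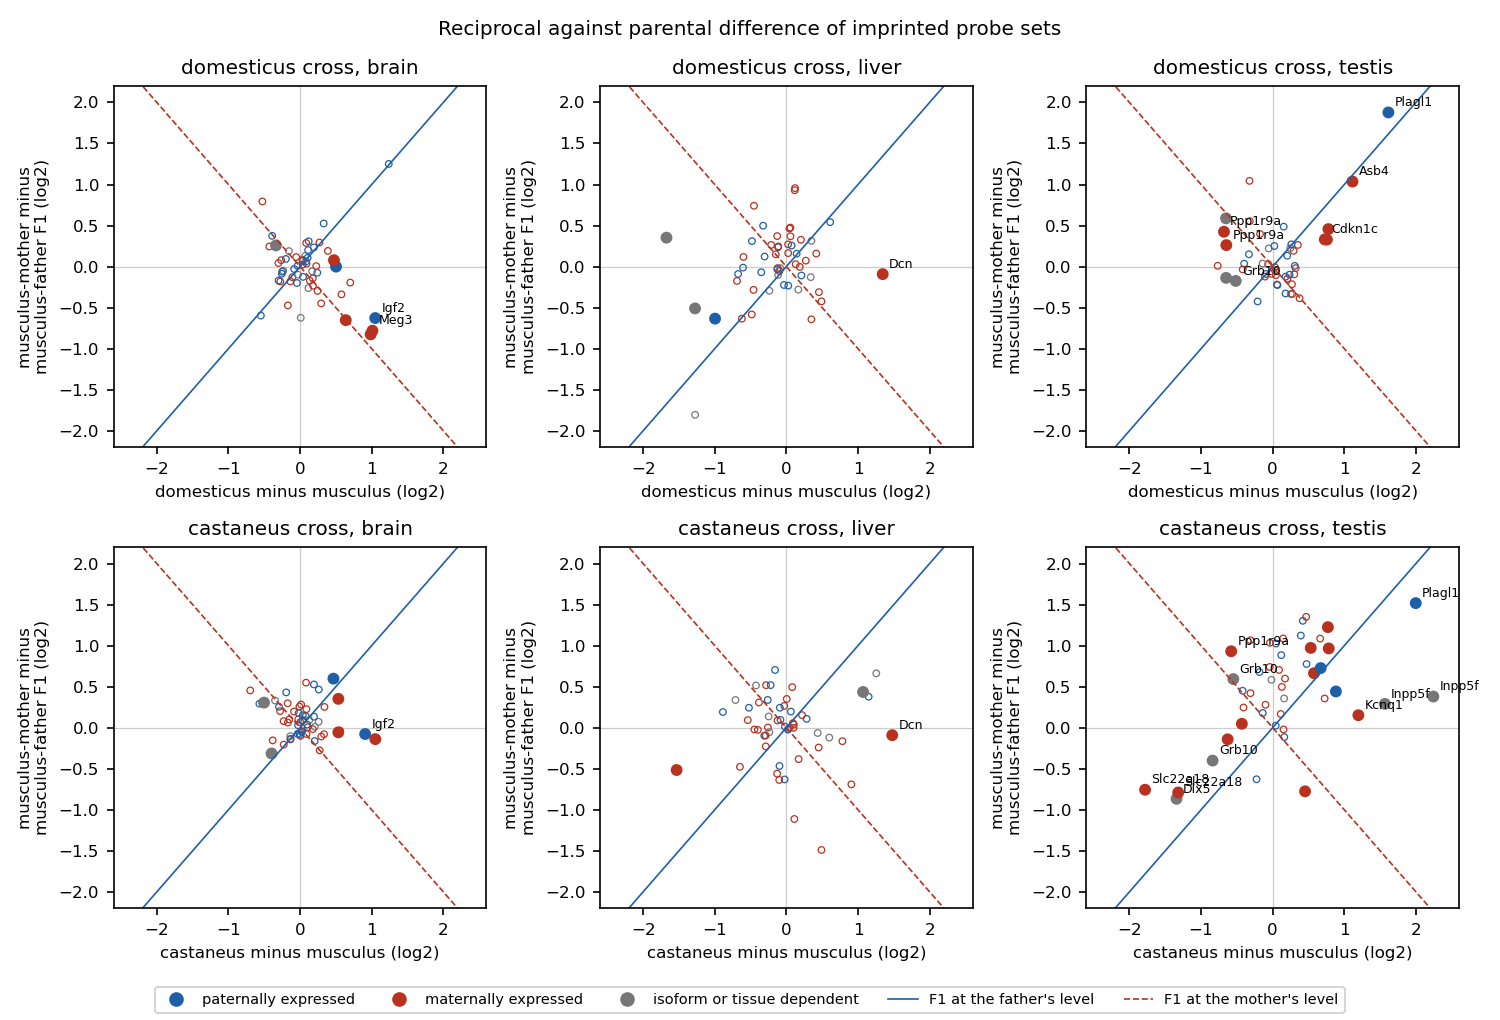
Each point is a tested imprinted probe set, with the parental difference (log2) on the horizontal axis and the difference between reciprocal F1 (log2) on the vertical axis; filled points had a parental p under 0.05, names mark parental calls at an adjusted p under 0.05, the solid line is an F1 at its father's level and the dashed line an F1 at its mother's level. Plagl1 lies near the father's line in the testis of the domesticus cross. In the castaneus cross Plagl1 lies between that line and the line of no reciprocal difference at 0. Meg3 lies near the mother's line in the brain of the domesticus cross.

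Inpp5f, an inositol phosphatase gene with a paternally expressed brain isoform, had the largest parental difference among the imprinted genes in testis, and it was found in the castaneus cross. With 1433542_at the testis signals were 252 and 281 in musculus, 223 and 255 in domesticus, and 855 and 843 in castaneus. The castaneus hybrids were also high, with 842 and 654 in musculus x castaneus and 475 and 760 in castaneus x musculus, while the domesticus hybrids stayed between 272 and 304. Castaneus exceeded musculus by 1.57 (SE 0.21, adjusted p = 0.000181) with this probe set and by 2.24 (SE 0.27, adjusted p = 9.43e-05) with 1447757_x_at, and both calls held without any 1 array. The reciprocal differences were 0.29 (SE 0.21) and 0.38 (SE 0.27), not called. The indices were 0.592 and 0.585. They were means of 0.881 and 0.811 in musculus x castaneus and 0.304 and 0.358 in castaneus x musculus, with both F1 towards castaneus.

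The other parental calls in testis fell to both sides. Slc22a18 was lower in castaneus with both probe sets: 1417809_at gave 191 and 150 in musculus and 37 and 19 in castaneus (log2 difference -1.78, SE 0.40, adjusted p = 0.00869), and 1427531_a_at gave 428 and 348 against 146 and 127 (-1.32, SE 0.30, adjusted p = 0.00915). Both probe sets therefore had castaneus below musculus with no overlap. Dlx5, a homeobox transcription factor, was lower in castaneus, with 356 and 318 in musculus and 127 and 102 in castaneus (-1.34, SE 0.23, adjusted p = 0.00132). Kcnq1, a potassium channel and a maternally expressed gene of its cluster, gave 221 and 95 in musculus and 401 and 355 in castaneus (1.20, SE 0.33, adjusted p = 0.0294). Asb4, a maternally expressed component of ubiquitin ligases, was higher in domesticus with 1433919_at, at 307 and 294 against 144 and 103 in musculus (1.11, SE 0.28, adjusted p = 0.018), but not with 1423422_at, at 326 and 200 against 308 and 350 (-0.32, SE 0.21). The Asb4 probe sets thus disagreed. Cdkn1c gave 1521 and 1498 in domesticus against 839 and 964 in musculus (0.73, SE 0.16, adjusted p = 0.00902).

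Grb10 was lower in both subspecies than in musculus, with 1425458_a_at at 829 and 877 in musculus, 606 and 569 in domesticus and 634 and 517 in castaneus. The differences were -0.52 and -0.55 (SE 0.15 for both, adjusted p = 0.0413 and 0.029). Its probe set 1425457_a_at was called in castaneus (-0.84, SE 0.23, adjusted p = 0.0294) and not in domesticus (-0.65, SE 0.23, adjusted p = 0.0922). Ppp1r9a was lower with 1440285_at, at 1474 and 1492 in musculus, 973 and 900 in domesticus and 905 and 1066 in castaneus (log2 differences -0.65 and -0.58, SE 0.17 for both, adjusted p = 0.0225 and 0.0381), and with 1456072_at in domesticus (-0.68, SE 0.19, adjusted p = 0.0275). Another Ppp1r9a probe set, 1458942_at, had the opposite sign in both, at 0.76 and 0.77 (SE 0.24 for both), not called. Of the called probe sets in these paragraphs, Grb10 1425458_a_at in domesticus, Grb10 1425457_a_at in castaneus and Ppp1r9a 1440285_at in both lost their parental calls without any 1 of the 4 arrays compared. Those of Cdkn1c, Asb4, Kcnq1, Ppp1r9a 1456072_at and, in castaneus, Grb10 1425458_a_at each held without only 1 of the 4. Testing with no filter also ended the castaneus calls of Kcnq1 and Grb10 1425457_a_at (adjusted p = 0.0521 and 0.0587 in limma). Those of Slc22a18 ended without musculus replicate 1 or castaneus replicate 2.

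The reciprocal F1 of the castaneus cross differed widely in testis. Of 47 imprinted probe sets, 19 were called (40.4%), from 15 genes, on the background of 28.4% given above. In musculus x castaneus 17 were higher (17.9% of all) and 2 lower (10.6%). The median difference was 0.497 over the imprinted probe sets and 0.237 over all tested probe sets. By role, 6 of 14 paternally expressed, 10 of 26 maternally expressed and 3 of 7 isoform- or tissue-dependent probe sets were called. The musculus x castaneus arrays both lay above the 12 other testis arrays for 16 of the 47 (34.0%, against 22.2% of all tested) and below them for 2 (4.26%, against 10.7%).

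Among paternally expressed genes, Igf2 gave 600 and 574 in musculus x castaneus and 245 and 303 in castaneus x musculus, while the other 10 testis arrays lay between 234 and 362. The musculus x castaneus F1 was thus above every other testis array, and the reciprocal difference was 1.03 (SE 0.18, adjusted p = 0.00158). Peg3, a zinc finger gene, with 1433924_at gave 323 and 392 against 118 and 181, with the other arrays between 144 and 265 (1.12, SE 0.25, adjusted p = 0.00572). Impact, a translational regulator, gave 629 and 609 against 305 and 338, with the others between 295 and 485 (0.88, SE 0.21, adjusted p = 0.00695). In both genes it was again the musculus x castaneus F1 that stood out, and the castaneus x musculus F1 lay within or near the range of the rest. Nnat gave 200 and 188 against 102 and 108 (0.73, SE 0.24, adjusted p = 0.0349). Mest, a hydrolase-like gene of mesoderm, differed in form: it gave 225 and 162 against 93 and 105, with the other arrays between 122 and 273, so that here the castaneus x musculus F1 was the lowest (0.78, SE 0.24, adjusted p = 0.0295).

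Among maternally expressed genes, Cd81, a tetraspanin membrane protein, gave 3757 and 4364 in musculus x castaneus against 2207 and 1902 in castaneus x musculus, with the other arrays between 1631 and 2713 (0.97, SE 0.18, adjusted p = 0.00162). All 3 Ppp1r9a probe sets tested in testis were higher, by 0.93 to 1.22, with 1440285_at at 1948 and 2530 against 1064 and 1242 (SE 0.17, adjusted p = 0.00174). Igf2r, the receptor that clears Igf2, was higher by 0.60 with 1424111_at, at 505 and 413 against 271 and 313 (SE 0.19, adjusted p = 0.0306). Its second probe set, 1424112_at, gave 608 and 245 against 123 and 242, where the groups barely parted (1.03, SE 0.36, adjusted p = 0.0477). Meg3 was higher with 1439380_x_at, at 925 and 1067 against 229 and 590 (1.35, SE 0.31, adjusted p = 0.00677), and with 1452905_at, at 468 and 546 against 192 and 255 (1.09, SE 0.27, adjusted p = 0.0102). No other Meg3 probe set was called, although 1426758_s_at, 1428764_at, 1429256_at, 1429257_at, 1436057_at and 1452183_a_at were also tested in testis. Dcn gave 2460 and 2337 against 1477 and 995 (0.97, SE 0.31, adjusted p = 0.0352). Cdkn1c went the other way, with 755 and 772 against 1471 and 1200 and the other arrays between 839 and 1601, so that the musculus x castaneus F1 was the lowest (-0.78, SE 0.16, adjusted p = 0.00407).

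Among the isoform- or tissue-dependent genes, Gnas, the stimulatory G protein alpha subunit locus, gave 4223 and 4552 against 3070 and 2768 with 1450186_s_at (0.58, SE 0.13, adjusted p = 0.00447), and Grb10 1425458_a_at gave 1073 and 933 against 613 and 696 (0.59, SE 0.15, adjusted p = 0.0122). Dlx5 was lower, at 141 and 78 against 219 and 218 (-0.87, SE 0.23, adjusted p = 0.0137).

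**Figure D4:**
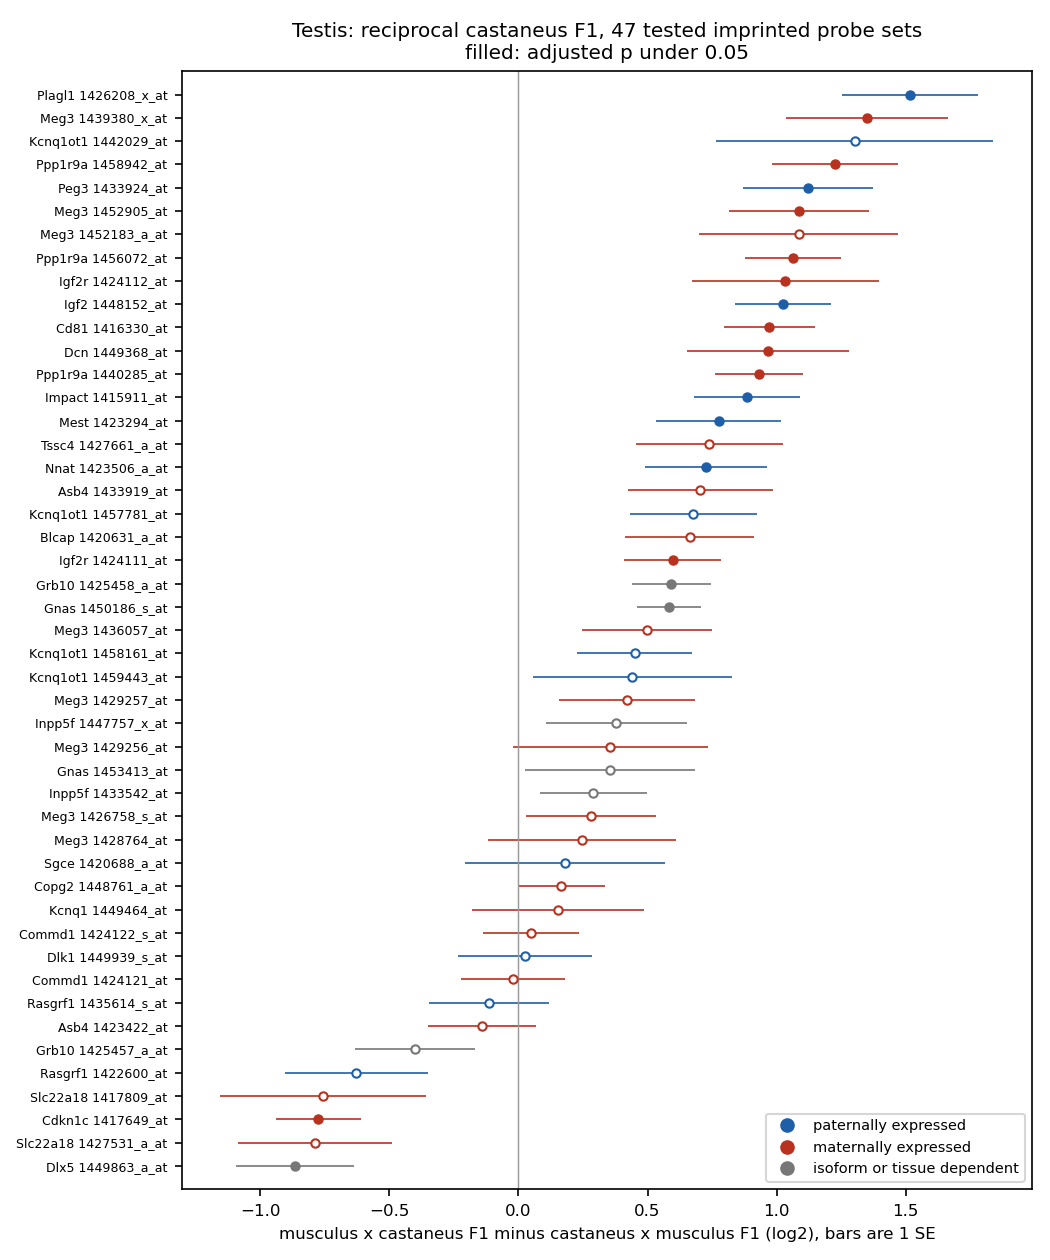
Difference between the musculus x castaneus and castaneus x musculus F1 in testis (log2, bars 1 SE) for the 47 tested imprinted probe sets, coloured by the copy usually expressed; filled points were called. Paternally and maternally expressed genes are mixed on the higher side, with 17 calls, and Cdkn1c and Dlx5 are the 2 calls on the lower side.

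The 19 calls rested unequally on the arrays. Without castaneus x musculus replicate 1, the array with the lowest median signal in testis, the count was 8, without musculus x castaneus replicate 2 it was 12, and without the other arrays it was 16 and 21. In all 4 cases 7 calls held: Cd81, Plagl1, Igf2, Gnas and the 3 of Ppp1r9a. Of the 19 calls, 13 held under an offset of 100, no filter, quantile normalisation and the replicate block alike. Quantile normalisation ended those of Mest, Nnat, both Igf2r probe sets and Meg3 1452905_at, and testing with no filter ended those of Mest, Nnat, Igf2r 1424112_at and Dcn (adjusted p up to 0.24). Markers of somatic testis cells moved with this comparison. All 4 Leydig cell genes measured (Cyp11a1, Cyp17a1, Hsd3b1 and Star) were called higher in musculus x castaneus, where their summed signal was 16314 and 17853, beside 8657 and 6710 in castaneus x musculus and 5284 to 12989 in the parents and the domesticus hybrids. Of 5 tested genes of Sertoli and peritubular cells, Acta2, Clu, Sox9 and Wt1 were called higher, and the sum of the list was 21448 and 21961 against 15839 and 13960. The germ cell sum was 54818 and 49101 against 58362 and 54374, with Acrv1 called lower. Col1a2 and Col3a1 of the fibroblast genes were called higher and Aldh1a2 lower. Their part in the imprinted gene differences was not tested.

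In the domesticus cross of testis, Asb4 1423422_at came nearest to a second call, with 625 and 573 in musculus x domesticus and 260 and 289 in domesticus x musculus (1.04, SE 0.21, adjusted p = 0.0895). It stood above both parental lines in the musculus x domesticus F1, and above domesticus, its father, the difference was called (1.13, SE 0.21, adjusted p = 0.0131). That call held without domesticus replicate 1 and was lost without each of the other 3 arrays compared (adjusted p up to 0.151). Probe set 1433919_at gave 673 and 513 in the same F1, above its musculus mother by 2.01 (SE 0.28, adjusted p = 0.000948). At an unadjusted p under 0.05 in limma, 6 of 47 imprinted probe sets (12.8%) passed in the domesticus reciprocal comparison, beside 4.88% of all tested.

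The paternal index was read in testis and liver in the same way. In the castaneus cross 19 imprinted probe sets had a parental p under 0.05, of which 9 had an index above 0.75 and 3 under 0.25, while 37.7% and 17.0% of all probe sets with such a difference did. The castaneus x musculus F1 alone lay above 0.75 for 4 of the 19 (18.1% of all) and under 0.25 for 2 (24.9%). In the domesticus cross 3 of 10 lay above 0.75 (6.62% of all) and 2 under 0.25 (6.58%). The 3 were Plagl1, which is paternally expressed, and Asb4 1433919_at and Kcnq1, which are known as maternally expressed. For Asb4 the index of 0.965 was the mean of 1.809 in musculus x domesticus, above both parents, and 0.121 in domesticus x musculus, near its mother, and so described neither F1. For Kcnq1 the index of 0.794 was the mean of 1.068 and 0.52. The 2 were Dlx5 at 0.049 and Ppp1r9a 1456072_at at 0.188. In liver 1 of 4 probe sets in the domesticus cross lay above 0.75 (14.2% of all), Sgce (epsilon-sarcoglycan, paternally expressed) at 0.818, and 0 under 0.25 (11.4%). Of 3 in the castaneus cross, 0 lay above 0.75 (6.08%) and 0 under 0.25 (8.11%).

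Hybrids were also compared with each parent in turn, over 4 F1 and all tested probe sets. In brain 1 of 224 imprinted comparisons with the father was called (0.794% of all), the Igf2 difference given above, and 0 of 224 with the mother (0.729%). In liver 0 of 208 were called against the father (0.932%) and 0 of 208 against the mother (0.986%). Leaving out either castaneus x musculus replicate took the brain count against the father to 2. In liver 1 was called against the father without either castaneus replicate, and 1 against the mother without domesticus replicate 2 or castaneus replicate 2. In testis 10 of 188 were called against the father (8.75%) and 25 of 188 against the mother (10.8%). Of these, the musculus x castaneus F1 held 7 and 20. Over the other 3 F1 the counts were 3 of 141 (2.53%) and 5 of 141 (2.31%). The 3 were both Inpp5f probe sets in castaneus x musculus, above musculus by 1.09 (SE 0.21, adjusted p = 0.0121) and 1.44 (SE 0.27, adjusted p = 0.0121), and Asb4 1423422_at in musculus x domesticus. The 5 were Plagl1 in both domesticus hybrids, Asb4 1433919_at and Cdkn1c (0.74, SE 0.16, adjusted p = 0.0254) in musculus x domesticus, and Mest in castaneus x musculus, below castaneus (-1.15, SE 0.24, adjusted p = 0.0237). The Inpp5f calls each held without only 1 of the 4 arrays compared (adjusted p up to 0.0893 with 1433542_at and 0.0998 with 1447757_x_at). The Cdkn1c and Mest calls were lost without any 1 of 4 (adjusted p up to 0.19 and 0.166), and that of Mest also with no filter (adjusted p = 0.0542). The comparisons with the father and with the mother share their F1 arrays. At an unadjusted p under 0.05 in limma, 18 imprinted comparisons in brain passed against the father and 11 against the mother. By F1 these were 5.36% to 12.5% and 3.57% to 5.36% of the imprinted probe sets, beside 8.16% to 10.7% and 6.68% to 10.8% of all tested. In liver 13 and 16 passed, at 1.92% to 13.5% and 5.77% to 11.5%, beside 8.79% to 12.7% and 9.18% to 12.3%.

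Whether a parental difference varied with the tissue was tested by the interaction of tissue and genotype over the 20178 probe sets kept in all 3 tissues, 37 of them imprinted. For domesticus minus musculus 3 of 37 were called (12.4% of all), and for castaneus minus musculus 6 of 37 (13.8%). Plagl1 differed between subspecies in testis far more than elsewhere: domesticus minus musculus was 0.33 in brain, 0.21 in liver and 1.62 in testis (adjusted p for tissue = 0.0232), and castaneus minus musculus was 0.19, -0.10 and 2.00 (adjusted p for tissue = 0.00065). The Inpp5f difference for castaneus was likewise found in testis, at 0.21 in brain, -0.24 in liver and 1.57 in testis with 1433542_at (adjusted p for tissue = 1.9e-07). Dcn had its largest difference in liver, with 0.03 in brain, 1.34 in liver and 0.29 in testis for domesticus (adjusted p for tissue = 0.00858). Grb10 1425458_a_at was lower in castaneus in brain (-0.40) and testis (-0.55) and higher in liver (1.07), with an adjusted p for tissue of 0.000378. Within single tissues only the testis difference was called (adjusted p = 0.26 in brain and 0.103 in liver, in limma). The domesticus count depended on single arrays, with 1 call without the liver or the testis array of musculus replicate 1, and all 3 domesticus calls were lost in a fit without the block on the male, which left 4 for castaneus.

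**Figure D5:**
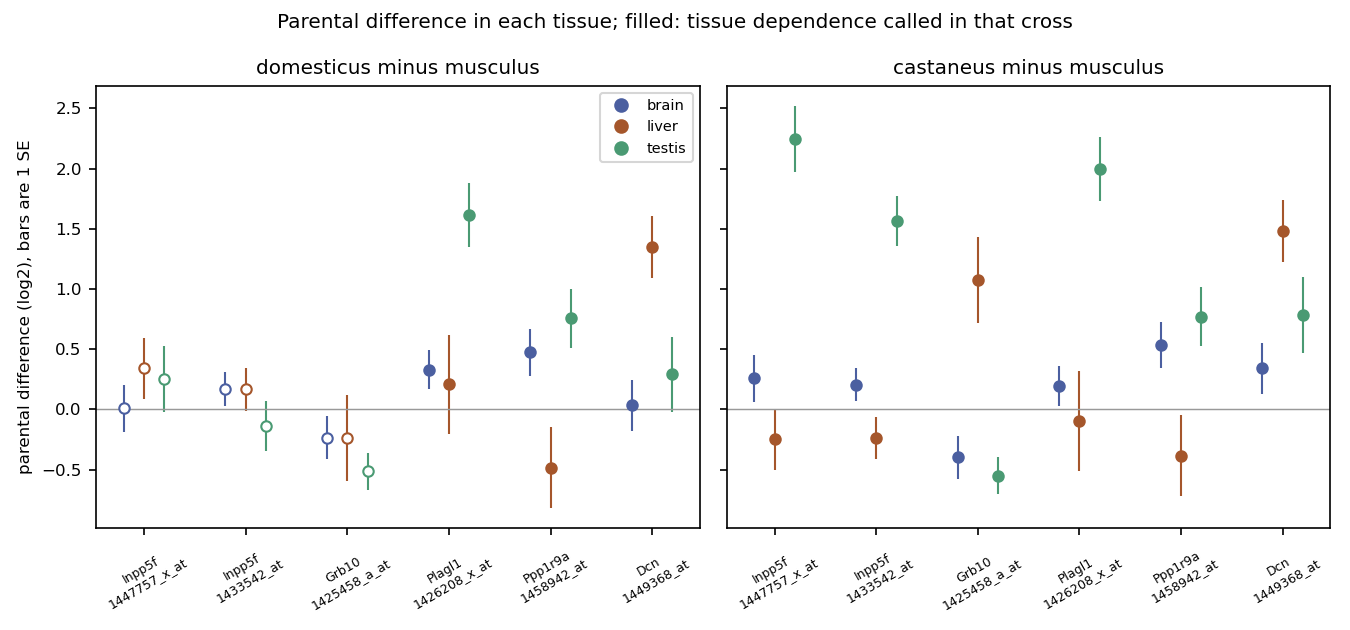
Parental difference (log2, bars 1 SE) in brain, liver and testis for the 6 imprinted probe sets called for tissue dependence in at least 1 cross; filled points mark the cross in which the call was made. Plagl1 and Inpp5f stand out in testis, Dcn in liver, and Grb10 has opposite signs in liver and in the other tissues for castaneus.

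Genes around the imprinted set were counted from 3 lists. Of regulators that set, read or maintain imprints (17 genes with probe sets), none was called by limma in brain (12 tested) or liver (14 tested) for domesticus minus musculus, and for castaneus minus musculus Dnmt3a, a de novo DNA methyltransferase, was higher in brain with 1423065_at (2.23, SE 0.44, adjusted p = 0.0105) and Tet2, which oxidises methylcytosine, in liver (0.95, SE 0.23, adjusted p = 0.0287). These were 1 of 23 and 1 of 22 probe sets (6.07% and 6.55% of all), and no other Dnmt3a or Tet2 probe set was called there. In testis, 14 of the regulators were tested. There 3 were higher (Dnmt1, Eed and Uhrf1) and 2 lower (Ctcf and Ezh2) in domesticus. In castaneus 2 were higher (Dnmt1 and Eed) and 1 lower (Ezh2). The testis calls were 5 and 3 of 26 probe sets, 1 for each called gene, beside 12.8% and 13.5% of all tested. Between the castaneus reciprocal F1 of testis, 6 were higher in musculus x castaneus (Ctcf, Dnmt1, Dnmt3a, Dnmt3b, Kdm1b and Tet2) and 1 was lower (Ezh2), from 8 of 26 probe sets, a share near the 28.4% of all tested.

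Of 16 other genes of insulin-like growth factor signalling, 13 were tested in brain, 15 in liver and 14 in testis. In brain 1 of 31 probe sets was called for domesticus and 0 for castaneus (5.75% and 6.07% of all). In liver 2 and 4 of 38 were called (6.17% and 6.55%). Igfbp4, a binding protein, was higher in domesticus brain with 1437406_x_at by 1.95 (SE 0.24, adjusted p = 0.000421), and no other Igfbp4 probe set was called there. Igfbp3, the main carrier of circulating growth factor, was higher in liver with 1423062_at by 2.63 in domesticus (SE 0.29, adjusted p = 0.000121) and by 1.82 in castaneus (SE 0.29, adjusted p = 0.00195). In castaneus liver Igf1 was also higher with 1419519_at (1.15, SE 0.22, adjusted p = 0.00751). Akt2, a kinase downstream of the receptor, was lower there with 1455703_at (-1.28, SE 0.33, adjusted p = 0.0366). No other Igf1 or Akt2 probe set was called in that comparison. In testis 2 genes were higher and 2 lower in domesticus, and 4 higher and 2 lower in castaneus, from 7 and 8 of 37 probe sets (12.8% and 13.5% of all). Igf2bp1, which binds Igf2 messenger RNA, was lower in both with 1449210_at, with log2 differences of -2.49 (SE 0.28, adjusted p = 3.89e-05) and -1.58 (SE 0.28, adjusted p = 0.00167). Between the castaneus reciprocal F1 of testis 7 were higher and 1 lower, from 10 of 37 probe sets, near the 28.4% of all tested.

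Of 21 further genes reported as imprinted in some tissue, 16 were tested in brain, 19 in liver and 17 in testis. In brain 1 of 26 probe sets was called for each subspecies (5.75% and 6.07% of all). Airn, the non-coding RNA of the Igf2r cluster, was lower in domesticus with 1457337_at (log2 difference -2.30, SE 0.45, adjusted p = 0.0105). H13, a signal peptide peptidase, was higher in castaneus with 1438456_at by 1.21 (SE 0.29, adjusted p = 0.0319). No other Airn or H13 probe set was called in brain. In liver 3 of 26 probe sets were called for domesticus and 2 for castaneus (6.17% and 6.55% of all). Tfpi2, a protease inhibitor, was higher in domesticus by 2.23 (SE 0.17, adjusted p = 6.11e-06) and in castaneus by 1.29 (SE 0.17, adjusted p = 0.000547). Nap1l4 was higher in domesticus by 1.055 (SE 0.237, adjusted p = 0.0181). Qpct, a glutaminyl cyclase, was lower in both, with log2 differences of -1.51 (SE 0.39, adjusted p = 0.0372) and -1.76 (SE 0.39, adjusted p = 0.0161). In testis 5 were higher in domesticus (Art5, Mirg, Pon2, Pon3 and Qpct), and 3 were higher (Gatm, Pon3 and Qpct) and 1 lower (Pon2) in castaneus, from 7 and 5 of 24 probe sets (12.8% and 13.5% of all). Pon2, a paraoxonase, had opposite signs in the subspecies, at 1.04 (SE 0.22, adjusted p = 0.00532) in domesticus and -1.57 (SE 0.22, adjusted p = 0.000235) in castaneus with 1429019_s_at. Both comparisons share the musculus arrays.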

How the data were processed

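The deposited values were array intensity signals of 45037 probe sets on a linear scale, made by the authors with MAS5, per the submitters' processing notes; its version and settings were not given in the sources used here. RNA was extracted with Trizol and labelled with biotin, per the labels' protocols. The members and gene lists were chosen with earlier results of these data known. Gene names came from the platform annotation, in which 34945 probe sets had 1 symbol, 932 several and 9160 none. Here, log2(signal + 31) was computed, 31 being the 20th percentile of all signals; an offset understates changes of low signals. In each tissue, probe sets above the 40th percentile of mean level were tested over 7 genotypes with limma 3.58.1 (R 4.3.3), an intensity trend, 7 residual degrees of freedom and Benjamini-Hochberg adjustment. Tissue dependence used all tissues with the male as a random block (correlation 0.293); the same male's deviations correlated across tissues in 21 of 21 tissue pairs (r = 0.159 to 0.476). Scripts were tested on simulated data. Array values are given for probe sets called between reciprocal F1, for the largest parental calls and for genes with high signal; probe sets with suffix _x_at or _s_at may match other transcripts. Nap1l5, Nnat, Rasgrf1, Slc38a4, Slc22a18 and the uncalled Commd1, Nnat, Meg3, Ddc and Asb4 probe sets were picked after their values were seen. The effect of sequence differences between subspecies under the probes was not tested. With 2 males of an inbred line per genotype, p-values measure the spread between these males.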

Additional observations from a re-analysis of the deposited data

Results flagged for a closer look

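The difference between parental subspecies depended on tissue for 6 imprinted probe sets, by the test of the tissue interaction. For castaneus minus musculus the adjusted p was 1.22e-07 for Inpp5f 1447757_x_at (log2 differences, given as brain, liver and testis, of 0.26, -0.25 and 2.24), 1.9e-07 for Inpp5f 1433542_at, 0.000378 for Grb10 1425458_a_at, 0.00065 for Plagl1 1426208_x_at, 0.0215 for Ppp1r9a 1458942_at (0.53, -0.38 and 0.77) and 0.0341 for Dcn 1449368_at (0.34, 1.48 and 0.78). For domesticus minus musculus the adjusted p was 0.00858 for Dcn, 0.0136 for Ppp1r9a 1458942_at (0.47, -0.48 and 0.76) and 0.0232 for Plagl1. Without the block on the male none of the 3 domesticus values was called. Both sets of values share the musculus arrays. The share of all probe sets that were called is given beside the counts in the results.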

How the results depend on the processing

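No single-tissue call among the imprinted probe sets (4 in brain, 2 in liver and 71 in testis) changed sign under an offset of 100, no filter, quantile normalisation, the replicate number as a block, or the loss of any 1 array. Same-numbered males of different genotypes did not deviate together in every pair, with r above 0.1 in 13 of 21 pairs in brain (r = -0.466 to 0.561), 10 in liver (-0.281 to 0.297) and 10 in testis (-0.39 to 0.306), so that the replicate block pairs numbers only: with the block, calls among imprinted probe sets became 2 for castaneus minus musculus in brain, 2 for F1 minus father in brain and 1 for F1 minus mother in brain. Under quantile normalisation F1 minus mother in brain gave 1 call and castaneus minus musculus in liver gave 2. Over the 3 F1 other than musculus x castaneus, chosen after seeing the data, testis gave 3 against the father and 5 against the mother. Tissue dependence for domesticus gave 5 calls with an offset of 100, 5 with no filter and 0 with no block on the male, and for castaneus 11 with no filter. The castaneus x musculus F1 alone, chosen after seeing the data, had 4 imprinted probe sets above 0.75 on the scale from mother to father in testis.

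Leaving out 1 array at a time, calls ranged in brain from 1 to 2 for domesticus minus musculus and from 0 to 2 for F1 minus father. In liver they ranged from 0 to 3 for domesticus minus musculus, from 1 to 2 for castaneus minus musculus, and from 0 to 1 for F1 minus father and for F1 minus mother. In testis they ranged from 1 to 3 for domesticus minus musculus, from 4 to 9 for castaneus minus musculus, from 0 to 1 and from 8 to 21 for the reciprocal differences of the domesticus and castaneus cross, from 7 to 13 for F1 minus father and from 20 to 29 for F1 minus mother. Tissue dependence ranged from 1 to 4 for domesticus and from 4 to 8 for castaneus. The cause was not tested. With 2 males per genotype the number of arrays limits the precision, and a gene not called is not shown to be equal.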
